A study of Ovis aries with 10 samples.

Results

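MicroRNAs are short RNAs that are cut from a hairpin precursor and repress the messenger RNAs they pair with. Each hairpin can give a 5p and a 3p arm, named for the side of the stem they come from, and often 1 arm is kept while the other is lost. The hairpins miR-3955, miR-3956, miR-3957, miR-3958 and miR-3959 were first described in sheep. The array held 152 miRNA probes, and every probe named after these 5 hairpins was taken, which gave 10 probes, a 5p and a 3p arm for each hairpin. The choice used the probe names and no measured value, but it was made with earlier results of these data known.

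The tissue was caudal lung of female merino sheep aged 9 months, in which bleomycin, a drug that injures the lung and is followed by scarring, had been infused into 1 caudal segment and saline into the opposite one. At week 4 both segments of 5 sheep, numbered 2, 3, 6, 7 and 10, were collected, so that 5 arrays carry the histology Fibrosis and 5 the histology Normal. The study had picked these animals for the most severe fibrosis, and the saline segment shared the animal with the injured one. The labels place the fibrotic segment on the left in sheep 2 and 3 and on the right in sheep 6, 7 and 10, whereas the methods describe bleomycin in the left segment throughout. The labels were followed. The array measured no messenger RNA, so the tissue could not be checked against its marker genes. In bulk tissue, fewer cells of a type and less RNA per cell cannot be told apart.

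In the RefSeq annotation of the sheep all 5 hairpin genes lie on chromosome 18, in a run of 55 neighbouring miRNA genes. This is the imprinted DLK1-DIO3 domain, in which the miRNAs are read from the chromosome inherited from the mother and in which the callipyge mutation, known for its effect on sheep muscle, also lies. Along the run MIR3955 sits between MIR370 and MIR379, and MIR3958 between MIR495 and MIR376E. MIR3956 sits between MIR1185 and MIR381, MIR3959 between MIR655 and MIR487A, and MIR3957 between MIR541 and MIR409. All 55 genes of the run had at least 1 probe on the array.

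The sheep-described miRNAs gave weak signals in lung. Values are the deposited background-corrected intensities on a linear scale, and an intensity of 32, or a mean log2 signal of 5, is used here as the limit of a dim probe. Of the 100 values of the 10 probes, 8 reached 32 and 19 were below 1. Over the other miRNA probes 42.7% of the values reached 32 and 14.5% were below 1. None of the 10 probes had a mean log2 signal of 5 or more, against 59 of all 152. This was shared with the rest of the chromosome 18 run, where 9 of the other 92 probes reached a mean of 5. All 50 remaining probes reached it, 1 of which matched no gene in the annotation. Probes differ in how well they bind and glow, so these counts describe the signal on the array and do not order the miRNAs by abundance.

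**Figure D1:**
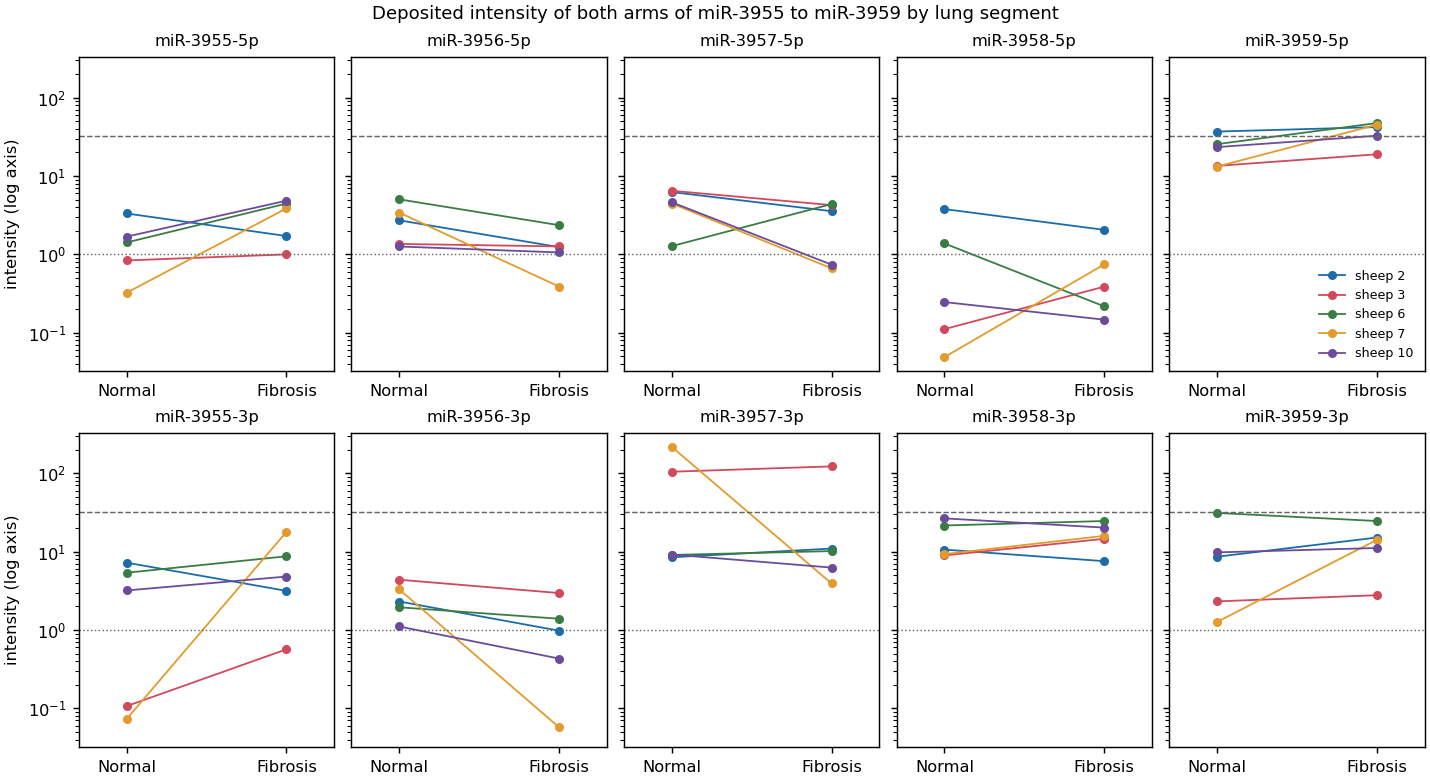
Deposited intensity (log axis) of each arm in the Normal and the Fibrosis segment, with a line for each of the 5 sheep; the upper row holds the 5p arms and the lower row the 3p arms. The dashed line marks an intensity of 32 and the dotted line 1; only miR-3957-3p and miR-3959-5p have points above the dashed line.

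Before the comparison by histology, 3 arrays need to be named. Over the 59 miRNAs whose mean log2 signal reached 5, none of which belongs to the 5 hairpins, the normal segment of sheep 7 deviated from the mean in the same way as both segments of sheep 3, with correlations between 0.667 and 0.787 among these 3 arrays. The normal and the fibrotic segment of sheep 7 had a correlation of -0.307. In the other animals it was -0.072 (sheep 2), 0.783 (sheep 3), 0.866 (sheep 6) and 0.456 (sheep 10). The normal segment of sheep 2 was most like that of sheep 7 (0.542), and that of sheep 10 most like that of sheep 6 (0.645). The same 3 arrays had the lowest summed control probe intensity, 78151 to 109247, against 126340 to 936426 on the other 7. Among the sheep-described miRNAs, 6 of the 10 had no overlap between these 3 arrays and the other 7. The same count was not made over the other miRNAs, so it cannot be read as particular to these hairpins.

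The clearest of these was miR-3957-3p. Sheep 3 had an intensity of 104 where the histology is Normal and 122 where it is Fibrosis, and the normal segment of sheep 7 had 216. The fibrotic segment of sheep 7 had 3.92, the lowest of all arrays. The other readings, normal segment first, were 8.46 then 10.9 for sheep 2, 9.06 then 10.1 for sheep 6, and 9.17 then 6.25 for sheep 10. The signal was therefore well above the dim limit on 3 arrays and below it on 7. High and low arrays did not follow the histology. Reaching 32 on 3 arrays was not particular to this probe within the chromosome 18 run. MiR-323a-5p, miR-381-5p and miR-329b-3p, chosen after their values were seen, also did so. Their log2 changes in sheep 7 were -6.45, -6.52 and -0.46. The arrays on which they reached 32 were not examined.

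The probes miR-3955-3p, miR-3955-5p, miR-3959-3p and miR-3959-5p went the other way and were lowest on those 3 arrays. MiR-3959-3p had intensities of 1.26 to 2.77 on them and 8.59 to 31.1 on the other 7. MiR-3959-5p had 13.2 to 18.9 and 23.4 to 47.3, respectively. MiR-3956-3p was highest on them, with 2.96 to 4.37 against at most 2.31. The remaining 4 probes, miR-3956-5p, miR-3957-5p and both arms of miR-3958, overlapped. The files do not settle whether the labels of the sheep 7 segments are right, and its paired changes rest on them. They were the largest in size for 8 of the 10 probes. That count was not made over the other miRNAs, so it cannot be read as particular to these hairpins. The part of the control probe level in these differences was not tested, and each change by histology is given below with and without these animals.

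**Figure D2:**
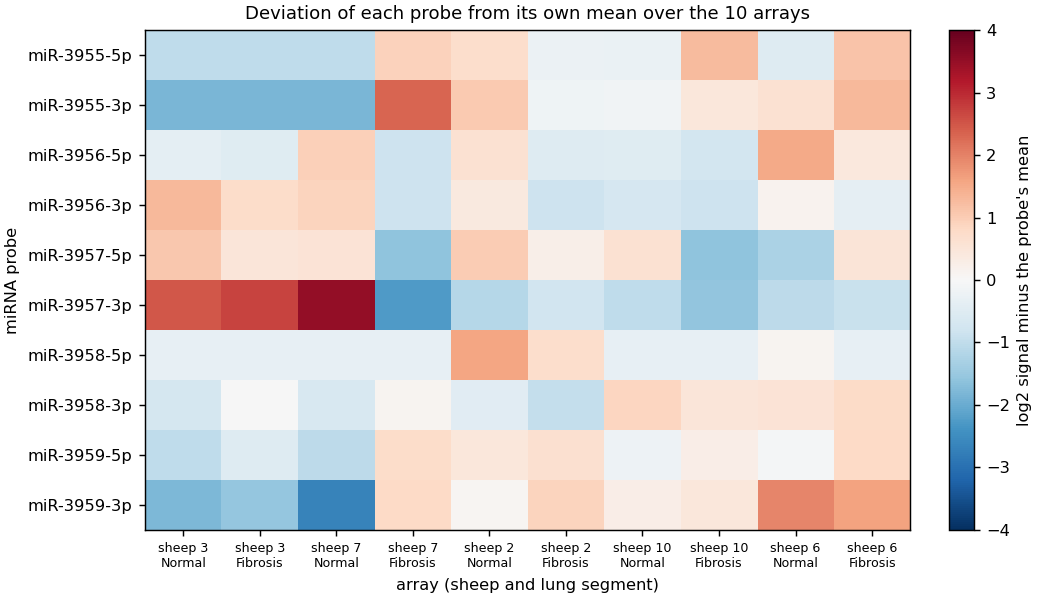
Deviation of each probe from its own mean (colour, log2 signal with intensities set to at least 1) on each of the 10 arrays, in columns by sheep and segment. In the first 3 columns, which hold both segments of sheep 3 and the normal segment of sheep 7, miR-3957-3p is high while miR-3955-3p and miR-3959-3p are low; the fibrotic segment of sheep 7 looks different.

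The fibrotic and the normal segments of each sheep were then compared, with intensities set to at least 1, log2 transformed and fitted with limma over all 152 miRNAs with the sheep as a block. None of the 10 probes passed an adjusted p of 0.05. Over the whole array 0 of 152 miRNAs passed it, or 0%, while 18, or 11.8%, had an unadjusted p under 0.05. Of the 10 probes, 3 had such an unadjusted p, namely miR-3956-3p, miR-3956-5p and miR-3959-5p, which ranked 3, 4 and 6 among all miRNAs by p. The same 3 probes changed in 1 direction in all 5 sheep, which 21 of the 152, or 13.8%, did. With 10 probes these shares rest on very few miRNAs. The median log2 change of the 10 probes was -0.055, with 5 above and 5 below 0, and -0.021 over all miRNAs.

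MiR-3959-5p was the brightest of the group, with a mean log2 signal of 4.76. The readings of miR-3959-5p, normal segment first, were 36.9 then 42.1 for sheep 2, 13.4 then 18.9 for sheep 3, 25.5 then 47.3 for sheep 6, 13.2 then 45.1 for sheep 7, and 23.4 then 32.6 for sheep 10. The fibrotic segment was the higher in each animal, although the ranges of the segments overlapped, since the fibrotic segment of sheep 3 was below 3 of the normal segments. The log2 signal averaged 4.38 ± 0.64 (SD, n = 5) over normal segments, against 5.14 ± 0.55 (SD, n = 5) over fibrotic ones. The mean log2 change was 0.77, with a standard error of 0.26 and a 95% interval from 0.12 to 1.41, and the limma adjusted p was 0.411. An exact sign-flip permutation test over the 5 sheep (two-sided) gave p = 0.0625, the smallest value that 5 sheep allow. The study lists this miRNA among those it called on the same samples, so its direction here is not independent evidence.

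The change of miR-3959-5p was largest in sheep 7, at 1.77, and lay between 0.19 and 0.89 in the others. Without sheep 7 the mean was 0.51, and 0.52 without sheep 3 and 7. It was above 0 under each scaling between arrays, at 0.61 when the miRNA median of each array was set equal and at 0.98 when the control probes were. After quantile normalization or centring on the 75th percentile, however, the fibrotic segment was not the higher in every sheep. With 16 added to every intensity the mean change was 0.47, and 0.26 with a floor of 32. If the left segment is coded as injured in all animals, as the methods state, it was -0.49.

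The opposite arm, miR-3959-3p, was dimmer. The readings of miR-3959-3p, normal segment first, were 8.59 then 15.1 for sheep 2, 2.31 then 2.77 for sheep 3, 31.1 then 24.5 for sheep 6, 1.26 then 14.1 for sheep 7, and 9.76 then 11.1 for sheep 10. It was higher in the fibrotic segment of 4 of the 5 sheep and lower in sheep 6, with a mean log2 change of 0.88, a standard error of 0.59 and a 95% interval from -0.60 to 2.35. The limma adjusted p was 0.540. Without sheep 7 the mean was 0.23, and 0.22 without sheep 3 and 7.

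Both arms of miR-3956 were lower in the fibrotic segment of all 5 sheep, at intensities near the bottom of the scale. The readings of miR-3956-5p, normal segment first, were 2.72 then 1.24 for sheep 2, 1.36 then 1.26 for sheep 3, 5.03 then 2.36 for sheep 6, 3.41 then 0.389 for sheep 7, and 1.26 then 1.06 for sheep 10. The mean log2 change was -0.87, with a standard error of 0.28, a 95% interval from -1.58 to -0.16 and a limma adjusted p of 0.411.

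The readings of miR-3956-3p, normal segment first, were 2.31 then 0.979 for sheep 2, 4.37 then 2.96 for sheep 3, 1.95 then 1.39 for sheep 6, 3.28 then 0.0575 for sheep 7, and 1.11 then 0.432 for sheep 10. Its mean log2 change was -0.82, with a standard error of 0.26, a 95% interval from -1.48 to -0.17 and a limma adjusted p of 0.411. For each arm the exact sign-flip test, two-sided, gave p = 0.0625.

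These differences amount to a few units of intensity, and the highest value of either arm on any array was 5.03. When 16 was added to every intensity before the logarithm, which takes weight from such small values, the changes were -0.12 for miR-3956-5p and -0.12 for miR-3956-3p. Without sheep 3 and 7 the mean changes were -0.83 and -0.61. Both stayed below 0 under each scaling, between -1.03 and -0.66 for the 5p arm and between -0.98 and -0.52 for the 3p arm. After quantile normalization or centring on the 75th percentile, however, neither arm was lower in every sheep. Under the same coding by side the mean changes were 0.38 and 0.12.

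**Figure D3:**
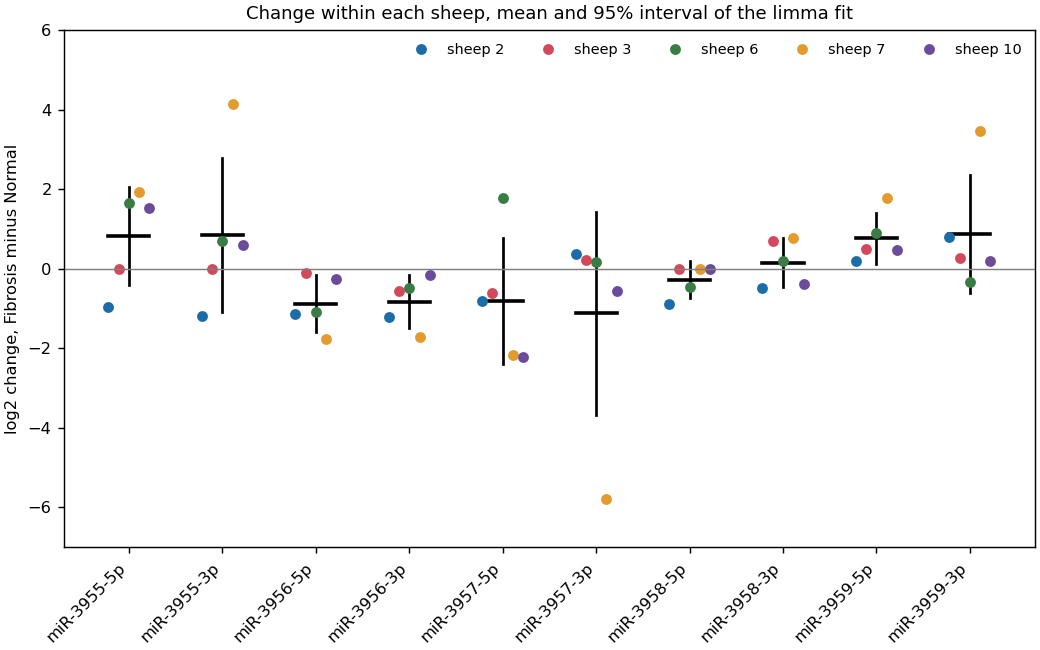
Log2 change of each probe, Fibrosis minus Normal, with a point for each sheep, a horizontal bar for the mean and a vertical line for the 95% interval of the limma fit. The intervals of miR-3956-5p, miR-3956-3p and miR-3959-5p do not cross 0, and sheep 7 holds the point farthest from 0 for miR-3957-3p, miR-3955-3p and miR-3959-3p.

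For both arms of miR-3955 and miR-3957 and for miR-3958-3p the direction differed between animals, and most values of miR-3958-5p lay under the floor. MiR-3957-3p had a mean log2 change of -1.12 with a standard error of 1.02 and a 95% interval from -3.66 to 1.43. The change was -5.79 in sheep 7, while the others had 0.37 (sheep 2), 0.23 (sheep 3), 0.16 (sheep 6) and -0.55 (sheep 10). Without sheep 7 the mean was 0.051, and it was -0.0072 without sheep 3 and 7.

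The readings of miR-3957-5p, normal segment first, were 6.23 then 3.56 for sheep 2, 6.47 then 4.25 for sheep 3, 1.27 then 4.38 for sheep 6, 4.45 then 0.664 for sheep 7, and 4.62 then 0.740 for sheep 10. It was lower in the fibrotic segment of 4 sheep and higher in sheep 6, with a mean log2 change of -0.80, a standard error of 0.63 and a 95% interval from -2.38 to 0.78. The mean was -1.44 without sheep 6 (limma unadjusted p = 0.0139), -0.46 without sheep 7, -0.45 without sheep 10 and -0.41 without sheep 3 and 7.

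The readings of miR-3955-5p, normal segment first, were 3.32 then 1.72 for sheep 2, 0.837 then 0.999 for sheep 3, 1.42 then 4.44 for sheep 6, 0.324 then 3.85 for sheep 7, and 1.68 then 4.84 for sheep 10. The readings of miR-3955-3p, normal segment first, were 7.22 then 3.15 for sheep 2, 0.107 then 0.566 for sheep 3, 5.37 then 8.70 for sheep 6, 0.0730 then 17.8 for sheep 7, and 3.19 then 4.80 for sheep 10.

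Both arms of miR-3955 were thus lower in the fibrotic segment of sheep 2 and higher in that of sheep 6, 7 and 10, and in sheep 3 all values were below 1 and count as no change. The mean log2 changes were 0.83 for the 5p arm, with a standard error of 0.49 and a 95% interval from -0.40 to 2.06, and 0.85 for the 3p arm, with 0.77 and an interval from -1.09 to 2.78. Without sheep 3 and 7 the 5p arm changed by 0.74 and the 3p arm by 0.031. Leaving out sheep 7 alone gave 0.55 and 0.023, and leaving out sheep 2 gave 1.28 and 1.36.

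MiR-3958-3p had intensities between 7.55 and 26.5 on all arrays. The readings of miR-3958-3p, normal segment first, were 10.6 then 7.55 for sheep 2, 8.92 then 14.5 for sheep 3, 21.5 then 24.5 for sheep 6, 9.28 then 15.9 for sheep 7, and 26.5 then 20.2 for sheep 10. The histologies overlapped, and 3 sheep were higher and 2 lower in the fibrotic segment. Its mean log2 change was 0.16, with a standard error of 0.25 and a 95% interval from -0.47 to 0.78, and it was -0.23 without sheep 3 and 7. It was 0.021 without sheep 3, 0.0036 without sheep 7 and 0.32 without sheep 2.

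MiR-3958-5p was below 1 on 7 of the 10 arrays. The exceptions were both segments of sheep 2, with 3.78 (normal) and 2.06 (fibrotic), and the normal segment of sheep 6, with 1.38. Its mean log2 change of -0.27, with a standard error of 0.18, therefore rests on sheep 2 and 6 alone. It was -0.12 without sheep 2 and -0.45 without sheep 3 and 7. The limma adjusted p of these 6 probes, miR-3955-5p, miR-3955-3p, miR-3957-5p, miR-3957-3p, miR-3958-5p and miR-3958-3p, lay between 0.518 and 0.778.

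Whether the arms of a hairpin changed unequally was examined from the difference of their log2 signals on each array. That difference also holds the unlike brightness of the probes, so only its change between segments is compared. The log2 signal of the 5p minus the 3p probe of miR-3959 averaged 1.80 ± 1.40 (SD, n = 5) over normal segments, against 1.69 ± 0.67 (SD, n = 5) over fibrotic ones. The shift was -0.62 for sheep 2, 0.23 for sheep 3, 1.24 for sheep 6, -1.70 for sheep 7 and 0.30 for sheep 10. Its mean was -0.11 (SD over sheep 1.11), and the exact sign-flip test, two-sided, gave p = 0.8125.

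For miR-3958 the arm difference averaged -3.31 ± 1.20 (SD, n = 5) over normal segments, against -3.74 ± 1.08 (SD, n = 5) over fibrotic ones. It was lower in the fibrotic segment of 4 of 5 sheep, with a mean change of -0.43 (exact p = 0.1875), and the 5p arm was mostly at the floor. The mean changes of the arm difference were -0.016 for miR-3955 (exact p = 1), -0.048 for miR-3956 (exact p = 0.6875) and 0.32 for miR-3957 (exact p = 0.875). The SD over sheep was 1.29, 0.38 and 2.24 for these hairpins. For these 5 hairpins no unequal change of the arms larger than the spread between sheep was detected, and with 5 sheep no exact p under 0.0625 is possible.

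Among the other 92 probes of the chromosome 18 run, 0 passed an adjusted p of 0.05 in limma and 9 had an unadjusted p under 0.05, 5 higher and 4 lower in the fibrotic segments. In all, 46 had a mean change above and 45 below 0, with a median log2 change of 0.0036 and a range from -2.05 to 1.98. The sheep-described probes, at -1.12 to 0.88, lay inside that range. The median standard error of the change was 0.39 for the 10 sheep-described probes, 0.34 for the other 92 and 0.16 for the 50 probes outside the run. Median changes of the 10 probes by animal were -0.84 for sheep 2, 0 for sheep 3, 0.18 for sheep 6, 0.39 for sheep 7 and -0.073 for sheep 10. The miRNAs of the run as a whole had -0.10, 0, 0.27, 0.058 and 0 in the same order, without the 10 probes.

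**Figure D4:**
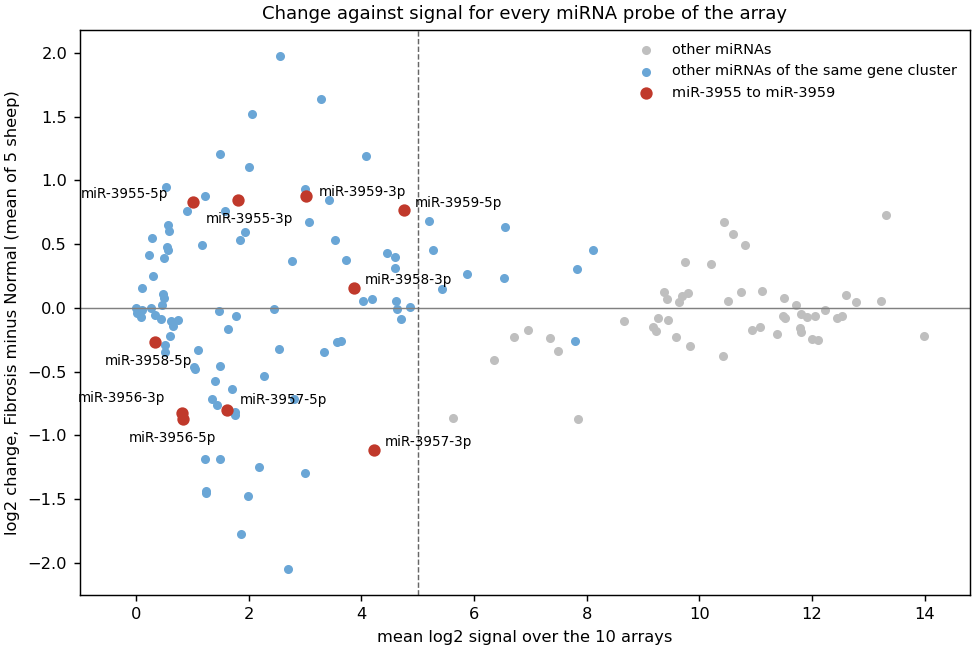
Mean log2 change, Fibrosis minus Normal, against the mean log2 signal over the 10 arrays for all 152 miRNA probes; the dashed line marks a mean of 5. The 10 sheep-described probes (red) lie left of the line among the other miRNAs of the chromosome 18 run (blue), where changes spread from -2.05 to 1.98, while the probes outside the run (grey) lie right of it.

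Over the 10 arrays the log2 signal of miR-3959-5p was most like that of miR-379-5p (Pearson r = 0.80), miR-495-3p (r = 0.74) and miR-200a (r = 0.70), among the 59 other miRNAs whose mean log2 signal reached 5. The genes of miR-379 and miR-495 lie in the same run, and miR-200a, which marks epithelium, lies outside it. This likeness rested on the 3 arrays that stand apart. On the other 7 arrays r was 0.080, 0.22 and -0.019 for the same miRNAs. The 10 arrays share animals, so these correlations are descriptions.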

How the data were processed

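Lung tissue from both caudal segments of 5 sheep was profiled on 10 custom ovine miRNA arrays with 1 dye, which hold 55 control probes beside 152 for miRNAs. The deposited value is an intensity for each probe, background corrected and averaged over replicate spots. The methods describe log2 data, but the deposited intensity values ran from 0.000974 to 200194 and were linear. No scaling between arrays and no image software are given in the sources used here. The summed miRNA intensity of an array ran only from 138979 to 146225, while that of the control probes ran from 78151 to 936426. Whether the deposited miRNA values had already been scaled between arrays was not tested. The number of arrays limits the precision.

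Intensities were set to at least 1, log2 transformed and fitted across all 152 miRNAs with limma 3.58.1 in R 4.3.3 (lmFit, eBayes, sheep as a block, Benjamini-Hochberg adjustment). Single probes and arm differences were also tested with two-sided exact sign-flip permutation tests over sheep. Pairing follows from the animal in the labels, which the files do not settle for sheep 7. Deviations of both segments from the condition means correlated at 0.34, 0.90, 0.40, -0.67 and 0.56 in sheep 2, 3, 6, 7 and 10. On simulated arrays, 20 miRNAs drawn from all 152 were changed in each of 50 runs. With a log2 change of 1, 43% passed a limma adjusted p under 0.05 in this comparison, and 76.2% with a change of 2. These rates are not for dim probes alone. The median standard error of the change was 0.39 for the 10 sheep-described probes, against 0.27 over all miRNAs.

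All 10 probes are named, and beside them the 3 miRNAs most like the brightest of them, since none reached a mean log2 signal of 5. Also named, after their values were seen, are miR-323a-5p, miR-381-5p and miR-329b-3p. Probes, lists and rules were chosen with earlier results of these data known. Hairpin genes were matched by name to RefSeq (sheep assembly ARS-UI_Ramb_v3.0), where 151 of 152 probes had a gene, with a run ending at a gap of 100 kb. Positions are left out because no build is stated for the array. Mature sequences were not analysed here. Alternatives were other scalings, floors and filters, no block, each sheep left out, segment coding, side, a variance trend and Student's test across sheep. The study applied that test within each sheep over replicate spots, which were not analysed here.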

Additional observations from a re-analysis of the deposited data

Results flagged for a closer look

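There were 30 sets of 5 values, for 10 probes each in normal segments, in fibrotic segments and as the change within sheep. Of these sets, 5 held a sample far from the other 4, where about 1 in 20 is flagged by chance. That rate may not hold here, since values are cut at the floor and the changes come from the same segment values. The log2 change of miR-3957-3p was -5.79 in sheep 7, against -0.55 in the nearest animal. In normal segments miR-3957-5p had a log2 signal of 0.35 in sheep 6, with the next at 2.15. For miR-3958-5p sheep 2 stood apart in both histologies, at 1.92 (normal, next 0.46) and 1.04 (fibrotic, next 0, the floor). MiR-3956-5p had 1.24 in the fibrotic segment of sheep 6, with the next at 0.34. The last 4 samples had intensities of 1.27, 3.78, 2.06 and 2.36, in the order given.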

How the results depend on the processing

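None of the 10 probes passed an adjusted p of 0.05 under any alternative that gave a value, in limma or in Student's test across the sheep. The study tested each sheep separately over replicate spots, which were not analysed here, so its own test was not rerun. At an unadjusted p under 0.05 there were 3 probes, and 1 after quantile normalization, with arrays centred on control probes, with 16 added to each value, with the left segment as bleomycin-infused and without sheep 3 and 7 (an alternative chosen after seeing the data). There were 0 with a floor of 32, where 8 probes had no variation and 2 were left, and 0 without the replicate block and in Student's test unpaired. The count of probes changed in 1 direction in every sheep was 3, and 0 when centring on the 75th percentile, after quantile normalization, with a floor of 32 and with the left segment as bleomycin-infused. It was 1 with arrays centred on control probes and 3 to 5 with 1 sheep left out, the 5 without sheep 6. With a floor of 32, 1 of 2 probes had a mean change above 0. A limit of 1 in place of 32 raised the values above the limit from 8 to 81. Over all miRNAs the 18 with an unadjusted p under 0.05 became 8 without the replicate block, 3 with the left segment as bleomycin-infused, 4 without sheep 3 and 7, 9 and 6 in Student's test paired and unpaired, 9 of 73 with a floor of 32, 9 of 59 with the filter at 5, and 6 to 26 with 1 sheep left out, lowest without sheep 3 and highest without sheep 6. Centring on the miRNA median moved the median change of all miRNAs by -0.16, centring on control probes by 0.21.

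With the left segment as bleomycin-infused the changes were -1.33 for miR-3955-3p, -1.21 for miR-3955-5p, 0.12 for miR-3956-3p, 0.38 for miR-3956-5p, 1.35 for miR-3957-3p, 0.23 for miR-3957-5p, -0.071 for miR-3958-3p, -0.45 for miR-3959-3p and -0.49 for miR-3959-5p. The arm difference then changed by 0.11 for miR-3955, 0.26 for miR-3956 and -1.12 for miR-3957. Without sheep 3 and 7 miR-3958-3p changed by -0.23. With 1 sheep left out in turn, the change of miR-3957-3p ran from -1.49 to 0.051, the highest without sheep 7, and the arm difference from -0.26 to 0.53 for miR-3955, -0.17 to 0.093 for miR-3956, -0.51 to 0.81 for miR-3957 and -0.45 to 0.29 for miR-3959. For miR-3959 it was 0.26 with a floor of 32 and 0.27 with 16 added. Of the recomputed changes of single probes, 161 kept their direction and 11 reversed. The causes were not tested. Part of the 161 could not reverse, since Student's tests, the fit without the block and the variance trend leave the mean change as it is. A filter at a mean log2 signal of 5 left none of the 10 probes, and a limit from blank control probes was not run because no control name marks a blank.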
